A study of Bos taurus with 111 samples.

Results

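The comparison described here is that of low residual feed intake (L-RFI, efficient) with high residual feed intake (H-RFI, inefficient) Charolais (CH) steers at the end of the second high concentrate phase (H2), written CH-H2. The libraries labelled breed CH and diet H2 were taken, and those with under 1000000 reads counted on genes were dropped. That rule left 14 of the 16 CH-H2 libraries, out of 111 in the whole series, with 7 steers in each RFI class. The dropped libraries were those of L-RFI steer 954, with 146321 counts, and H-RFI steer 871, with 592192 counts.

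All the animals were castrated males of the CH or Holstein-Friesian (HF) breed, and dry matter intake and growth were recorded over 70-day feeding phases. During H2, the finishing phase, the steers ate concentrates freely with a limited amount of grass silage each day, the same diet as in the first phase (H1), after an intermediate phase on zero-grazed grass (ZG). RNA was taken from 50 mg biopsies of M. longissimus thoracis et lumborum, a loin muscle. The CH steers averaged 283 days of age at the start of H1, and 395, 519 and 675 kg at the start of H1, ZG and H2. The HF steers averaged 306 days at the start of H1 and 611 kg at the start of H2. Comparisons across phase or breed thus also differ in age and weight. Both classes had the same breed, diet and phase, and differed by label in RFI, which the study ranked within breed and diet. Each library came from a different steer within CH-H2.

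Residual feed intake is the feed an animal eats beyond that predicted from its body weight and growth, so that a low value marks an animal that eats less than predicted for the same output. The deposited protocol also puts the gain in back fat into that prediction and the study's methods do not, so the sources differ on whether fatness was adjusted for. In cattle fed concentrates, new fatty acids are built mainly in adipose cells, including those that lie between the fibres of a muscle as marbling. There, fatty acid synthase makes the carbon chain, elongases lengthen it, THRSP promotes the programme, and droplet proteins such as CIDEC store the product as triglyceride.

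Between L-RFI and H-RFI steers of CH-H2, 0 of 10070 genes (0%) passed an adjusted p-value of 0.1 and a fold change of 1.5 by edgeR's quasi-likelihood test, and the smallest adjusted p-value was 1.00. The unadjusted p-value was under 0.05 for 89 genes (0.884%), where 504 would be expected by chance. Of these, 58 (0.576%) were at a lower level in L-RFI steers and 31 (0.308%) at a higher level. A fold change past 1.5, whatever its p-value, was fitted for 268 genes (2.66%) at a lower level and 111 (1.1%) at a higher level. The genes at the head of the list that could be named were a set of lipid genes at a lower level in L-RFI steers, led by *THRSP*, together with *ADAMTS8* at a higher level.

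The classes overlapped in depth. The L-RFI libraries held 2201765 to 21445065 counts on genes (median 14379490) and the H-RFI libraries 5060485 to 32101658 (median 12609642), with a two-sided exact permutation p-value of 0.732 for the log10 depth. At these depths 3 counts correspond to between 0.0935 and 1.36 counts per 1000000 (CPM) before normalization. The levels below are normalized, and L-RFI steer 856 had a normalization factor of 0.611, which raises its levels further. Its levels rested on 3 counts for *THRSP*, 1 for *TRARG1*, 2 for *ELOVL6*, 4 for *ACSM1* and 6 for *PCK2*. Of the libraries, 3 stood apart. H-RFI steers 1484 and 1840 had 8.21% and 5.68% unmapped reads, against at most 1.41% in the other 12 libraries, and 22.2% and 17.1% of reads mapped to several places, against at most 7.70%. L-RFI steer 856 had the fewest counts and 10008 genes with a count, the lowest mean rank correlation with the other libraries (0.812) and 76.8% of its counts in 50 genes. The first principal component held 59.4% of the variance and did not order the libraries by class. Gene names were at hand for 151 of the 24616 genes, all of them on lists that the study drew from these libraries, so the named genes are not an even sample of any pathway. Of 10 skeletal muscle markers 0 had a name, but the muscle proteins *MYH6* (113 to 513 CPM) and *CSRP3* (37.5 to 493 CPM) were present in all 14 libraries.

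*THRSP*, a nuclear protein that promotes the transcription of lipogenic genes, had the smallest p-value of all genes tested. Its level was 0 to 2.99 CPM in L-RFI steers, with a median of 1.73, and 3.19 to 52.0 CPM in H-RFI steers, with a median of 7.63. Every H-RFI steer lay above every L-RFI steer, though the highest L-RFI steer (322) and the lowest H-RFI steer (1100) were close. Over all genes, 2 (0.0199%) had L-RFI steers wholly below H-RFI steers, and 0 (0%) had them wholly above.

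For *THRSP* the log2 fold change of L-RFI over H-RFI was -3.40 (SE 0.74, n = 7 and 7), a level 10.6-fold higher in H-RFI steers, with an unadjusted p-value of 0.000258 and an edgeR adjusted p-value of 1.00. The call depended on the test. The edgeR exact test, which was the study's choice, gave an adjusted p-value of 0.0563 and called 1 gene (0.00993%), *THRSP* itself, and DESeq2 gave 0.00895 for it and called 2 genes (0.0199%). The study, which selected more steers per class, listed 28 genes for CH-H2 by the exact test. The exact permutation test on log2 CPM gave an unadjusted p-value of 0.000583, the smallest that 7 against 7 allows, and called no gene after adjustment. A gene whose classes do not overlap reaches that value, so it restates the separation given above. Leaving out each steer in turn moved the log2 fold change between -3.71 and -2.67, the latter without H-RFI steer 1840, and without the 3 libraries that stood apart it was -2.88.

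**Figure D1:**
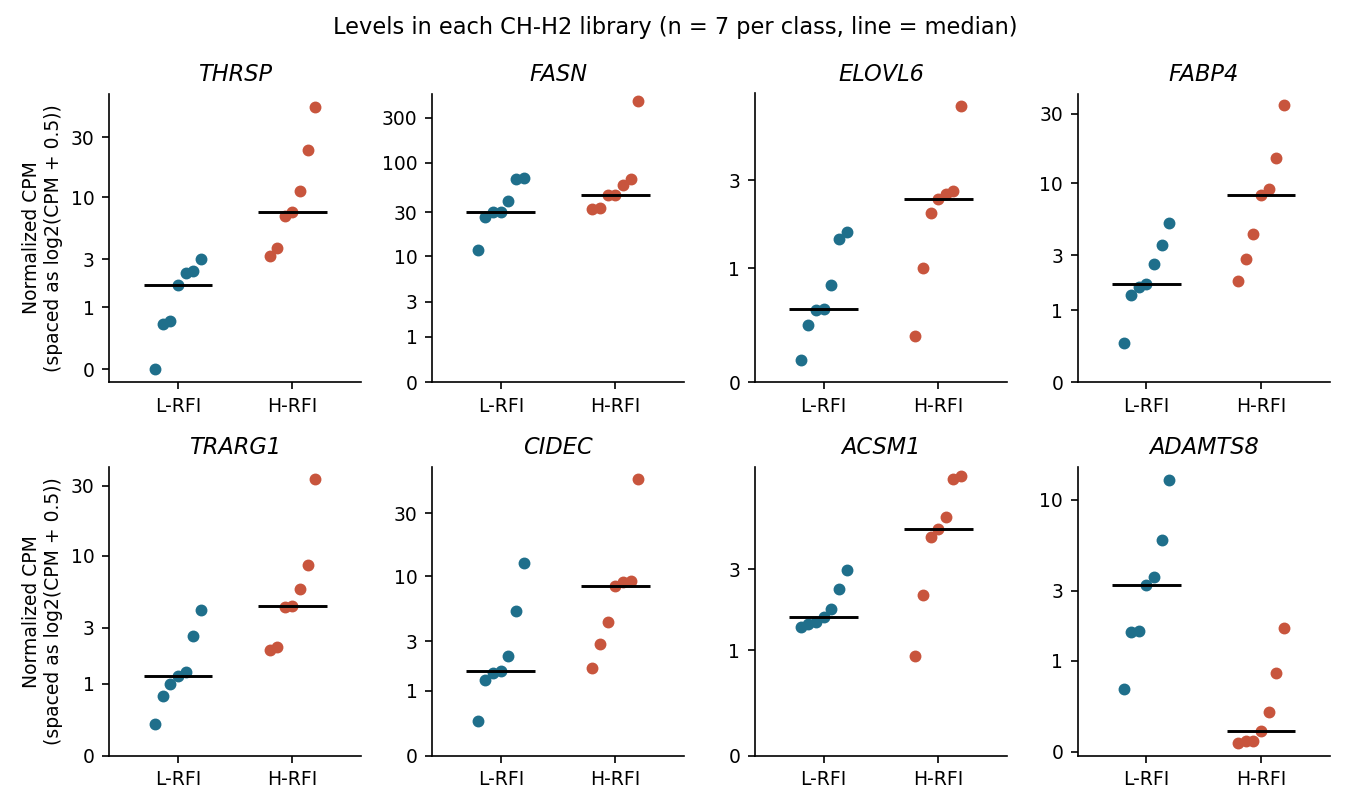
Normalized CPM of 8 genes in each CH-H2 library, on a vertical axis spaced as log2(CPM + 0.5), with 1 point per steer, 7 steers per class and a line at the class median. In *THRSP* the 7 H-RFI steers (3.19 to 52.0 CPM) all sit above the 7 L-RFI steers (0 to 2.99 CPM), while in the other genes the classes overlap.

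Of the 16 names listed for the synthesis of fatty acids, 3 had an identifier and were tested, and all 3 (*THRSP*, *ELOVL6* and *FASN*) were at a lower level in L-RFI steers with an unadjusted p-value under 0.05. Their median log2 fold change was -1.85, against -0.02 over all genes tested. A lower level at that p-value was found for 0.576% of all genes. These 3 genes are among 16 tested genes with a name that the study listed for CH-H2, of which 12 were at a lower and 1 at a higher level in L-RFI steers with an unadjusted p-value under 0.05. That list was chosen on these samples and is not independent evidence of its direction.

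*ELOVL6*, the elongase that extends palmitate to stearate, had 0.121 to 1.62 CPM in L-RFI steers (median 0.509) and 0.281 to 6.64 CPM in H-RFI steers (median 2.43). The classes overlapped through H-RFI steers 1484 and 1100, which had the lowest H-RFI levels, and 6 of the 7 H-RFI steers exceeded the L-RFI median. Its log2 fold change was -1.85 (SE 0.58, unadjusted p-value 0.00526, edgeR adjusted p-value 1.00), and it was -2.16 without the 3 libraries that stood apart.

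*FASN*, the fatty acid synthase that assembles palmitate, ranged from 11.8 to 69.3 CPM in L-RFI steers (median 30.4) and from 32.3 to 448 CPM in H-RFI steers (median 45.6). The classes overlapped between 32.3 and 69.3 CPM, and the value of 448 came from H-RFI steer 1840 alone, where the other H-RFI steers reached 68.0 CPM. A log2 fold change of -1.42 (SE 0.60, unadjusted p-value 0.0295, edgeR adjusted p-value 1.00) became -0.26 without that steer, with an unadjusted p-value of 0.476.

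Of 16 adipocyte marker names, 4 had an identifier and 3 passed the filter on low counts, and all 3 of these were at a lower level in L-RFI steers with an unadjusted p-value under 0.05. Their median log2 fold change was -2.33. A lower level at that p-value was found for 0.576% of all genes. Genes had names only through the study's lists from this series, so this count is not independent evidence. *FABP4*, the fatty acid binding protein of adipocytes, had 0.407 to 5.20 CPM in L-RFI steers (median 1.76) and 1.86 to 34.2 CPM in H-RFI steers (median 8.28). All 7 H-RFI steers were above the L-RFI median and the L-RFI steers were all below the H-RFI median. Its log2 fold change was -2.33 (SE 0.62, unadjusted p-value 0.00151, edgeR adjusted p-value 1.00).

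*TRARG1*, a regulator of the trafficking of the insulin-responsive glucose transporter in fat cells, had 0.305 to 4.10 CPM in L-RFI steers (median 1.181) and 2.01 to 33.3 CPM in H-RFI steers (median 4.36). The overlap came from L-RFI steers 307 and 310, the highest of their class. A log2 fold change of -2.34 (SE 0.65, unadjusted p-value 0.00235) was fitted, and -1.40 without H-RFI steer 1840.

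*CIDEC*, which fuses lipid droplets in adipocytes, had 0.407 to 12.6 CPM in L-RFI steers (median 1.62) and 1.70 to 54.2 CPM in H-RFI steers (median 8.47). L-RFI steer 856, 1 of the libraries that stood apart, held the highest L-RFI level, above all H-RFI steers except steer 1840. The log2 fold change was -2.14 (SE 0.79, unadjusted p-value 0.0154), and -1.01 without steer 1840, with an unadjusted p-value of 0.123. *ANGPTL8*, a secreted inhibitor of lipoprotein lipase, did not pass the filter, with 0.204 to 4.46 CPM in L-RFI steers and 0.487 to 8.52 CPM in H-RFI steers. *PLIN5*, the droplet protein of oxidative muscle and not of adipocytes, had 6.20 to 15.6 CPM and 3.41 to 14.5 CPM, with a log2 fold change of 0.07 (SE 0.32).

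The genes whose log2 CPM followed that of *THRSP* most closely over the 14 libraries were *FABP4* (Pearson's r = 0.94) and *TRARG1* (0.90), with *CIDEC* (0.86) at rank 4 and *FASN* (0.80) at rank 8, and the other 6 of the first 10 had no name. The 14 libraries include both classes, and after removal of the class means the 4 values were 0.91, 0.81, 0.84 and 0.82.

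Fewer adipocytes in a biopsy and less RNA of these genes per adipocyte cannot be told apart in bulk samples. The summed level of the adipocyte markers *FABP4*, *TRARG1*, *CIDEC* and *ANGPTL8* was 1.32 to 23.0 CPM in L-RFI steers (median 5.61) and 6.05 to 130 CPM in H-RFI steers (median 23.7). The classes overlapped, and the lowest sum was that of L-RFI steer 1316, the only library with a *THRSP* count of 0.

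Across the 14 steers, log2 *THRSP* followed the log2 marker sum with Pearson's r = 0.915 (permutation p = 5e-05, adjusted over 3 relations 7.5e-05) and Spearman's rho = 0.842 (permutation p = 0.00039, adjusted 0.000585). *THRSP*, *FASN*, *ELOVL6* and the markers *FABP4*, *TRARG1* and *CIDEC* are all on the study's list for CH-H2. The values over 14 steers were permuted without regard to class, so they do not separate a shared class difference from a relation between steers. Without the 2 steers farthest from the median sum, r for *THRSP* was 0.791. Within the L-RFI class r was 0.844 (exact permutation p = 0.0169, adjusted 0.0253) and within the H-RFI class 0.966 (exact permutation p = 0.000595, adjusted 0.00179). Within-class rho was 0.714 in L-RFI steers (exact permutation p = 0.0881, adjusted 0.132) and 0.964 in H-RFI steers (exact permutation p = 0.00278, adjusted 0.00833), so the L-RFI relation did not hold by rank.

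For *FASN* r was 0.897 (permutation p = 5e-05, adjusted 7.5e-05) and rho 0.837 (permutation p = 0.00027, adjusted 0.000585), with r = 0.731 without the 2 farthest steers. Within classes it was 0.983 in L-RFI steers (exact permutation p = 0.00159, adjusted 0.00476) and 0.846 in H-RFI steers (exact permutation p = 0.0240, adjusted 0.0360). By rank it was 0.857 in L-RFI steers (exact permutation p = 0.0238, adjusted 0.0714) and 0.714 in H-RFI steers (exact permutation p = 0.0881, adjusted 0.132), neither of which passed 0.05 after adjustment. *ELOVL6* had r = 0.552 (permutation p = 0.0409, adjusted 0.0409) and rho = 0.569 (permutation p = 0.0364, adjusted 0.0364), and r = 0.597 without the 2 farthest steers. That relation did not pass 0.05 within classes of 7 steers, with r = 0.0794 in L-RFI steers (exact permutation p = 0.873) and 0.531 in H-RFI steers (exact permutation p = 0.207), nor by rank, with rho = 0.0714 (exact permutation p = 0.906) and 0.464 (exact permutation p = 0.302).

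**Figure D2:**
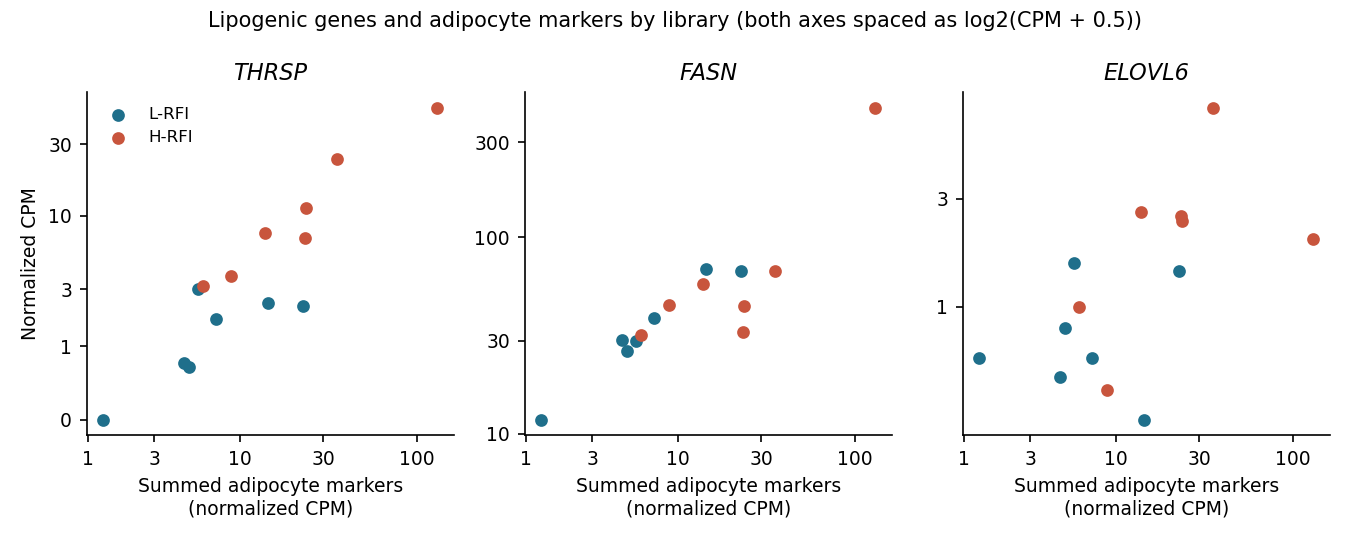
Normalized CPM of *THRSP*, *FASN* and *ELOVL6* in each CH-H2 library against the summed CPM of 4 adipocyte markers, both axes spaced as log2(CPM + 0.5), with 1 point per steer. *THRSP* and *FASN* rise with the marker sum (r = 0.915 and 0.897 on the log2 scale), while the *ELOVL6* points scatter more widely (r = 0.552).

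With the log2 marker sum as a covariate, an alternative chosen after seeing the data, the log2 fold change of *THRSP* was -1.25 (unadjusted p-value 0.0192, adjusted 0.765) and that of *ELOVL6* -1.11 (unadjusted p-value 0.176). Under the same covariate *FASN* had 0.29 (unadjusted p-value 0.379) and *ACSM1* -1.06 (unadjusted p-value 0.0535). That covariate may carry part of any RFI difference itself.

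Genes for fatty acid uptake and oxidation showed no common direction. Of 3 tested, 1 was at a lower level in L-RFI steers with an unadjusted p-value under 0.05, against 0.576% of all genes. The median log2 fold change of the 3 was 0.13. *ACSM1*, a mitochondrial ligase that activates medium-chain fatty acids, had 1.42 to 2.97 CPM in L-RFI steers (median 1.63) and 0.913 to 8.75 CPM in H-RFI steers (median 4.79). The lowest level of all was that of H-RFI steer 1100, and 5 of the 7 H-RFI steers lay above every L-RFI steer. The fitted log2 fold change was -1.48 (SE 0.41, unadjusted p-value 0.00223), with -0.99 when H-RFI steers 1484 and 1840 were left out, the 2 with the highest levels. Over the 14 libraries its log2 CPM followed *ALB* (r = 0.82, and 0.84 after removal of the class means) and *FGB* (0.78 and 0.81) more closely than *THRSP* (0.60 and 0.29), as a description. The part of liver-type transcripts in its level was not tested.

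*PDK4*, the kinase that switches muscle from glucose to fat oxidation, stood at 429 CPM in L-RFI steer 1316 and 301 CPM in H-RFI steer 443, and between 4.21 and 32.0 CPM in the other 12 steers. High levels were thus found in single steers of both classes, and the log2 fold change was 0.27 (SE 1.13). *SLC27A6*, a fatty acid transporter, had 0.743 to 8.26 CPM and 0.341 to 8.09 CPM, with a log2 fold change of 0.13 (SE 0.62).

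*PCK2*, the mitochondrial phosphoenolpyruvate carboxykinase, had 0.369 to 4.46 CPM in L-RFI steers (median 0.713) and 0.700 to 11.8 CPM in H-RFI steers (median 2.30). Its highest level in either class came from a library that stood apart, steer 856 in L-RFI and steer 1840 in H-RFI. Its log2 fold change of -1.73 (SE 0.64, unadjusted p-value 0.0146) became -1.002 without H-RFI steer 1840.

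*CKB*, the brain-type creatine kinase, had 0.258 to 4.46 CPM in L-RFI steers (median 2.02) and 1.49 to 24.5 CPM in H-RFI steers (median 2.80). The value of 24.5 CPM was again that of steer 1840, and the other H-RFI steers did not exceed 4.49 CPM. Without it the log2 fold change went from -1.71 (SE 0.75, unadjusted p-value 0.0355) to -0.60 (unadjusted p-value 0.318).

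**Figure D3:**
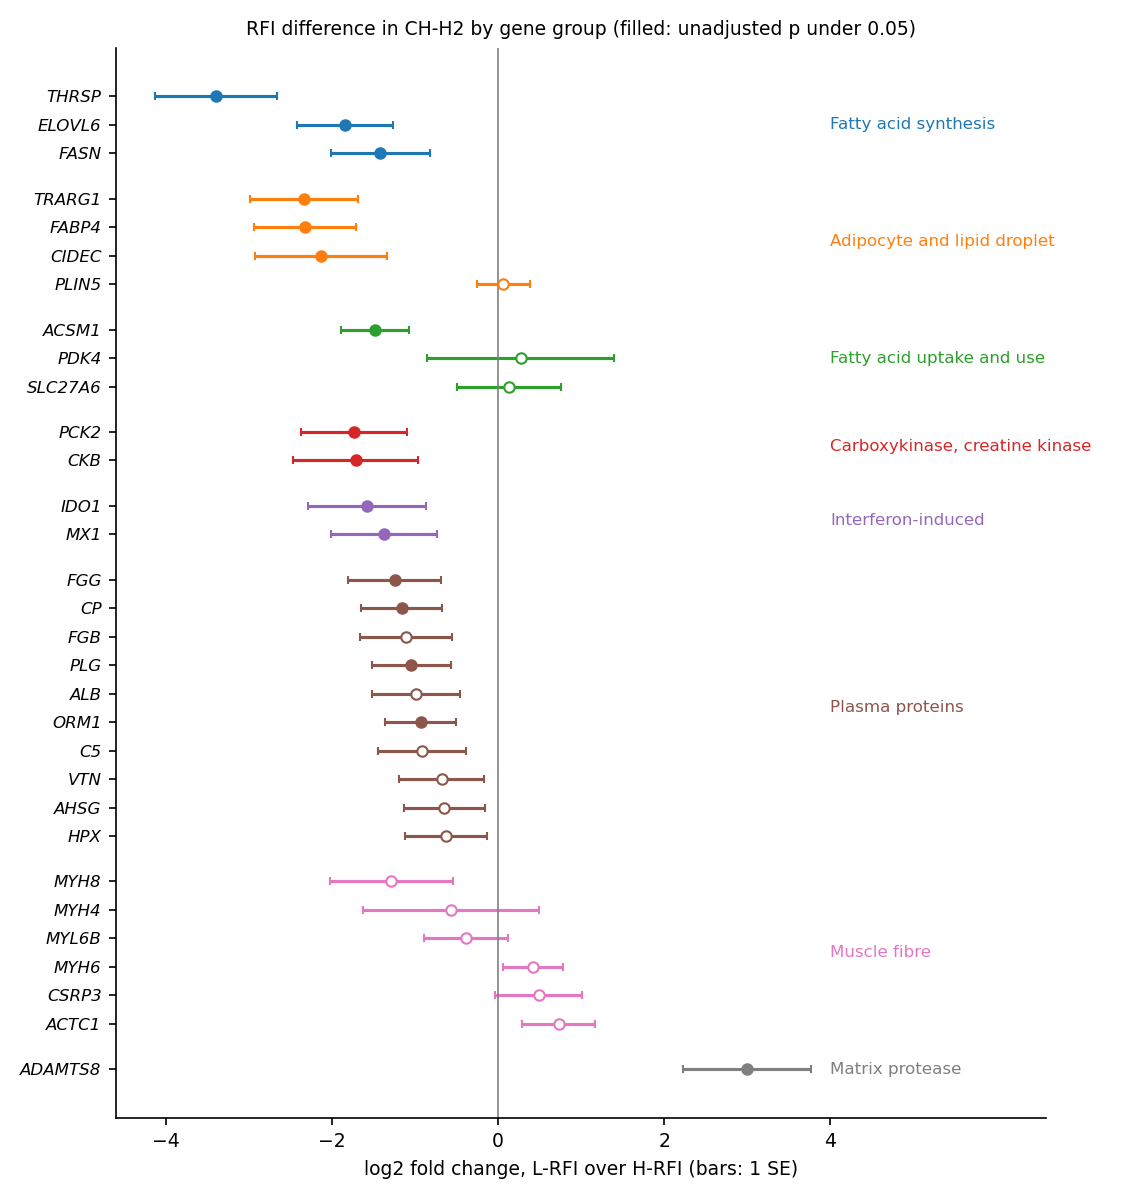
Log2 fold change of L-RFI over H-RFI steers in CH-H2 with 1 SE for 31 named genes, by gene group, filled where the unadjusted p-value was under 0.05. Fatty acid synthesis genes lie between -3.40 and -1.42 and *ADAMTS8* at 3.00, and no gene passed the adjusted threshold by edgeR's quasi-likelihood test.

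*ADAMTS8*, a secreted protease of the extracellular matrix, was the named gene with the smallest p-value among those at a higher level in L-RFI steers. It had 0.570 to 12.8 CPM in L-RFI steers (median 3.25) and 0.0578 to 1.73 CPM in H-RFI steers (median 0.140). All 7 L-RFI steers were above the H-RFI median, and the overlap came from H-RFI steer 1100 (1.73 CPM) and steer 1840 (0.795 CPM).

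For *ADAMTS8* the log2 fold change was 3.00 (SE 0.77, unadjusted p-value 0.00125, edgeR adjusted p-value 1.00), a level 7.98-fold higher in L-RFI steers, and it stayed between 2.81 and 3.22 when each steer was left out in turn. The H-RFI levels rested on 1 to 57 counts, with a single count in 4 of the 7 steers. *POSTN*, another matrix protein, did not pass the filter.

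Of 27 interferon-induced gene names, 5 had an identifier and 2 were tested, both at a lower level in L-RFI steers with an unadjusted p-value under 0.05. Over all genes that share was 0.576%, and both were named only through the study's lists from this series. *MX1*, an antiviral GTPase, had 1.99 to 5.90 CPM in L-RFI steers (median 2.88) and 1.48 to 24.5 CPM in H-RFI steers (median 3.09). The class medians were close and the high H-RFI levels were those of steers 419 (24.5 CPM) and 443 (24.3 CPM), with all other steers at or under 5.90 CPM.

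The log2 fold change of *MX1* was -1.37 (SE 0.64, unadjusted p-value 0.0457), and -0.86 without steer 419 and -0.82 without steer 443. *IDO1*, the tryptophan-degrading enzyme induced by interferon, was high in the same 2 steers, at 15.4 CPM in steer 419 and 10.4 CPM in steer 443, against 0.362 to 3.36 CPM in all others. Its log2 fold change was -1.58 (SE 0.71, unadjusted p-value 0.0403), and -0.90 without steer 419. *IFIT3*, *UBD* and *CASP4* did not pass the filter.

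All 10 tested transcripts of plasma proteins, which are made by the liver, were at a lower level in L-RFI steers, as were 54.9% of all genes. With an unadjusted p-value under 0.05 there were 4 of these transcripts, against 0.576% of all genes. Their median log2 fold change was -0.96. It was 0.06 when the 2 libraries under 1000000 counts were kept. The summed level was 64.7 to 237 CPM in L-RFI steers (median 84.1) and 37.2 to 618 CPM in H-RFI steers (median 199.99), where the 618 CPM belonged to steer 1484, with 8.21% unmapped reads.

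*FGG*, the gamma chain of fibrinogen, had 5.77 to 17.1 CPM in L-RFI steers (median 9.22) and 3.19 to 77.4 CPM in H-RFI steers (median 12.1). Steer 1484 held the 77.4 CPM and the next H-RFI steer 29.0 CPM, and the log2 fold change of -1.24 (SE 0.56, unadjusted p-value 0.0405) became -0.45 without steer 1484. *ALB*, the albumin gene, had 30.6 to 135 CPM in L-RFI steers and 22.9 to 333 CPM in H-RFI steers, with a log2 fold change of -0.99 (SE 0.53, unadjusted p-value 0.0804) that became -0.51 without steer 1484.

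*PLG*, plasminogen, had a log2 fold change of -1.04 (SE 0.47), with -0.62 without steer 1484, and *CP*, the copper carrier ceruloplasmin, had -1.16 (SE 0.49), with -0.67 without it. *ORM1*, an acute phase glycoprotein, had 1.87 to 4.46 CPM in L-RFI steers and 0.639 to 9.82 CPM in H-RFI steers, where 5 of the 7 H-RFI steers lay above every L-RFI steer. Its log2 fold change was -0.93 (SE 0.43, unadjusted p-value 0.0427). Whether liver-type transcripts came from blood or other material in the biopsies was not tested.

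Muscle fibre genes gave 0 members with an unadjusted p-value under 0.05, which 0.884% of all genes had. The 3 slow fibre genes had a median log2 fold change of 0.42, with *MYH6* at 176 to 513 CPM in L-RFI and 113 to 453 CPM in H-RFI steers (log2 fold change 0.42, SE 0.36). *MYH8*, the perinatal myosin heavy chain, had 5.20 to 37.1 CPM in L-RFI and 4.26 to 196 CPM in H-RFI steers (log2 fold change -1.28, SE 0.74, unadjusted p-value 0.102), and a log2 fold change of -0.15 without H-RFI steer 419. *ACTC1*, the cardiac alpha-actin that developing muscle also makes, had 2.90 to 18.9 CPM in L-RFI and 2.35 to 8.998 CPM in H-RFI steers (log2 fold change 0.73, SE 0.43, unadjusted p-value 0.112). *MYH4*, the fastest myosin heavy chain, was at 90.9 CPM in H-RFI steer 1320 and 56.0 CPM in L-RFI steer 1316, and at or under 6.13 CPM in the other 12 steers. The fitted -0.57 (SE 1.06, unadjusted p-value 0.601) on the log2 scale was -2.41 without steer 1316 and 1.84 without steer 1320. For both *ACTC1* and *MYH4* the study reported the opposite direction in CH-H2.

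Of the 15 immediate-early and stress genes tested, 0 had an unadjusted p-value under 0.05, 5 were at a lower level in L-RFI steers and the median log2 fold change was 0.10. Over all genes 0.884% had such a p-value and 54.9% were at a lower level, so 0 of 15 says little about the set. *FOS* had 1.44 to 62.1 CPM in L-RFI steers and 2.38 to 27.5 CPM in H-RFI steers (log2 fold change 0.92, SE 0.67), and -0.013 without L-RFI steer 1316. *EGR1*, an immediate-early transcription factor, had 2.11 to 8.35 CPM in L-RFI and 1.27 to 14.1 CPM in H-RFI steers (log2 fold change 0.10, SE 0.46, unadjusted p-value 0.835), and -0.061 without H-RFI steer 1320. The mitochondrially encoded *MT-CO3*, a subunit of cytochrome c oxidase, had 10008 to 97204 CPM and 13047 to 63615 CPM (log2 fold change 0.11, SE 0.50).

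*PTPRC*, the leukocyte common antigen and the 1 leukocyte marker of 5 with an identifier that passed the filter, had 0.121 to 13.9 CPM in L-RFI steers and 0.356 to 4.67 CPM in H-RFI steers (log2 fold change 1.00, SE 0.84). The summed leukocyte markers were 1.95 to 33.7 CPM in L-RFI and 1.85 to 11.5 CPM in H-RFI steers, with the 33.7 CPM in L-RFI steer 322.

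Among genes without a name, ENSBTAG00000015563 was the other gene whose classes did not overlap, with 2.23 to 3.98 CPM in L-RFI and 4.47 to 6.04 CPM in H-RFI steers and a log2 fold change of -0.66 (SE 0.20, unadjusted p-value 0.00413). ENSBTAG00000043250, the other gene called by DESeq2 (adjusted p-value 0.0505), had 0.143 to 2.16 CPM in L-RFI and 0.173 to 136 CPM in H-RFI steers. Its H-RFI median was 2.02 CPM, and its high levels were those of steers 1484 and 1840, the libraries with the most unmapped reads. It was picked out here after its values were seen.

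The same RFI contrast was set beside those of CH steers in the earlier phases (CH-H1 and CH-ZG) and of HF steers in the same phase (HF-H2), to ask whether the difference depended on phase or breed. The CH-ZG library of H-RFI steer 571 went against its tissue label. It had 80668 CPM of *ALB*, against 19.8 to 507 CPM in the other 17 CH-ZG libraries, and 0.403 CPM of *MYH6* and 0.115 CPM of *CSRP3*, where the lowest levels of these muscle proteins in those 17 were 184 and 80.9 CPM. It also had 57.5 CPM of *THRSP* and 1230 CPM of *ACSM1*, the highest levels of its class, with 0 CPM of *FABP4* and *TRARG1*. CH-ZG values are therefore given with and without it, a choice made after seeing the data. In CH-H2, CH-H1 and HF-H2 the lowest *MYH6* level was 63.6 CPM and the highest *ALB* level 1480 CPM.

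Each difference of RFI effects uses the CH-H2 libraries again and so is not independent of the values above. Within the other comparisons, genes at a lower level in L-RFI steers with an unadjusted p-value under 0.05 numbered 523 (5.26%) for CH-ZG, or 43 (0.438%) without steer 571, 127 (1.2%) for CH-H1 and 27 (0.272%) for HF-H2. By edgeR's quasi-likelihood test of the interaction, 0 genes passed in any of the 3, with unadjusted p-values under 0.05 for 142 genes (1.38%) against CH-H1, 327 (3.28%) against CH-ZG, or 56 (0.567%) without steer 571, and 97 (0.973%) against HF-H2.

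In HF-H2 steers the lipid genes had log2 fold changes near 0, with 0.15 (SE 0.64) for *THRSP*, 0.16 (SE 0.54) for *FABP4* and 0.21 (SE 0.53) for *TRARG1*. On the scale of all kept libraries, *THRSP* was at 5.20 to 104 CPM (median 11.2) in the 8 L-RFI and 7.34 to 81.5 CPM (median 14.3) in the 8 H-RFI steers of HF-H2. All 16 HF-H2 steers thus lay above every CH-H2 L-RFI steer in *THRSP*, whose highest level there was 3.22 CPM on that scale. In *FABP4*, *TRARG1*, *CIDEC*, *ELOVL6* and *FASN* these groups overlapped. For *FABP4*, HF-H2 levels began at 3.26 CPM and CH-H2 L-RFI levels reached 5.38 CPM. *THRSP* was followed because of its CH-H2 levels, so its separation of HF-H2 from CH-H2 L-RFI steers is not independent of that choice. The share of all genes separated in the same way has not been computed. Breed cannot be told apart from age and weight in this comparison.

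The difference of the RFI effect between CH-H2 and HF-H2 was -3.47 (SE 1.01, unadjusted p-value 0.00174) for *THRSP*, -2.39 (SE 0.84, unadjusted p-value 0.00798) for *FABP4* and -2.48 (SE 0.85, unadjusted p-value 0.00671) for *TRARG1*, with edgeR adjusted p-values of 1.00. For *ELOVL6* it was -2.17 (SE 0.90, unadjusted p-value 0.0221), for *CIDEC* -2.36 (SE 1.02, unadjusted p-value 0.0273) and for *FASN* -1.35 (SE 0.83, unadjusted p-value 0.114).

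In CH-H1, on the same diet in the first phase, *THRSP* had 0.296 to 9.78 CPM (median 0.611) in 8 L-RFI and 0.866 to 6.97 CPM (median 2.72) in 10 H-RFI steers. Its log2 fold change there was -0.51 (SE 0.60), and the difference to CH-H2 was -2.91 (SE 0.98, unadjusted p-value 0.00547, edgeR adjusted p-value 1.00). *TRARG1* differed by -1.78 (SE 0.83, unadjusted p-value 0.0395) and *FASN* by -1.14 (SE 0.63, unadjusted p-value 0.0789). *ADAMTS8* had -0.08 (SE 0.77) in CH-H1, with a difference of 3.06 (SE 1.22, unadjusted p-value 0.0172).

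The transcripts of plasma proteins went the other way in CH-H1. All 10 had positive log2 fold changes there, from 0.56 (*ALB*) to 1.11 (*C5*), and their differences to CH-H2 lay between -2.19 (*FGG*, SE 0.84, unadjusted p-value 0.0133) and -1.55 (*ALB*, SE 0.79, unadjusted p-value 0.0591), with edgeR adjusted p-values of 1.00. Such transcripts rose and fell together (*ALB* with *FGB* r = 0.92 in CH-H2), so they are not 10 separate observations. The share of all genes with a positive log2 fold change in CH-H1 was not computed. In CH-H2 the median of these transcripts turned positive when the libraries under 1000000 counts were kept.

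In CH-ZG, on grass, *THRSP* had 0 to 4.53 CPM (median 0.50) in 9 L-RFI steers. In the 8 H-RFI steers other than steer 571 it had 0.0790 to 34.5 CPM (median 2.91), and the classes overlapped. With steer 571 its log2 fold change was -3.29 (SE 1.00, unadjusted p-value 0.00378) and the difference to CH-H2 -0.08 (SE 1.29, unadjusted p-value 0.950). Without that steer *THRSP* did not pass the filter in CH-ZG, and fitted with no filter it had -2.45 (SE 0.85, unadjusted p-value 0.00898), with a difference to CH-H2 of -0.93 (SE 1.22, unadjusted p-value 0.448). Both differences leave room for one of more than a log2 unit in either direction.

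*CIDEC* had -2.12 (SE 0.73) in CH-ZG and -2.29 (SE 0.72, unadjusted p-value 0.00472) without steer 571, and *FABP4* -1.97 (SE 0.86) and -2.14 (SE 0.74, unadjusted p-value 0.00889). Leaving the library out thus moved these adipocyte genes by less than 1 SE, and moved the plasma protein transcripts by several log2 units. With it, the 9 tested plasma transcripts had log2 fold changes between -7.39 (*ORM1*) and -5.62 (*AHSG*), and without it between -0.87 (*ALB*, SE 0.53, unadjusted p-value 0.118) and 0.15 (*AHSG*). *ACSM1* went from -6.13 (SE 1.48) to -1.08 (SE 0.47, unadjusted p-value 0.0334).

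**Figure D4:**
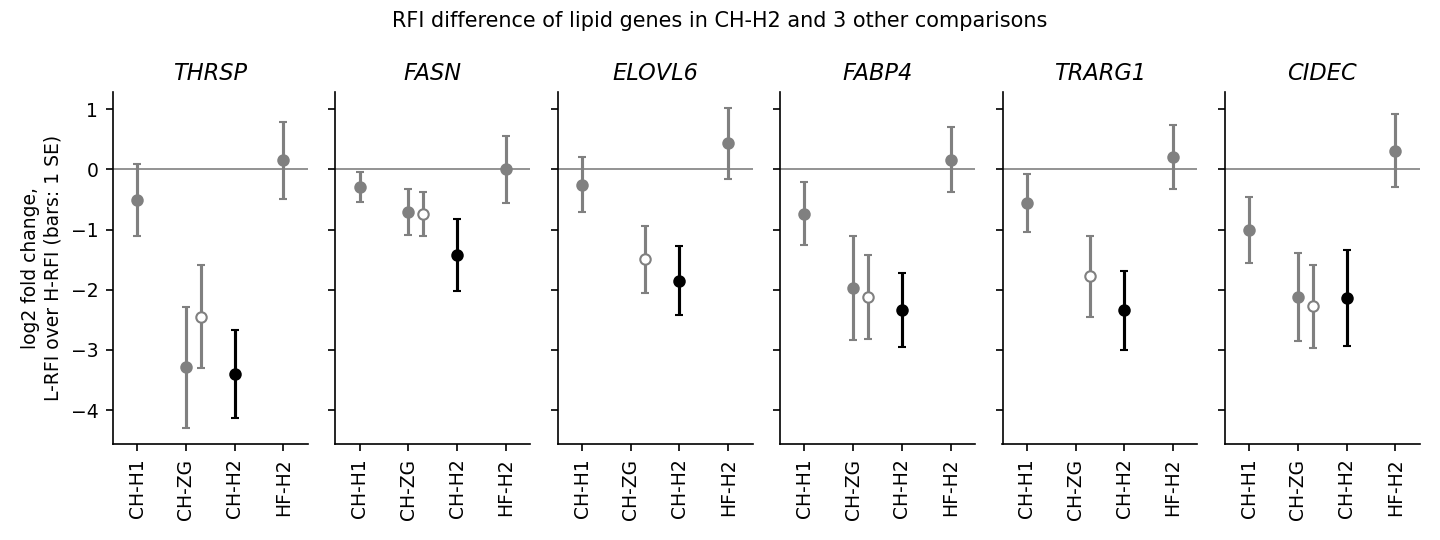
Log2 fold change of L-RFI over H-RFI steers with 1 SE for 6 lipid genes in CH-H1, CH-ZG, CH-H2 (black) and HF-H2, with no point where the gene did not pass the filter on low counts. The open points are CH-ZG without the library of steer 571, fitted with no filter. *THRSP* lies at -3.40 in CH-H2, at -3.29 in CH-ZG (-2.45 at the open point), and at -0.51 in CH-H1 and 0.15 in HF-H2.

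Of the 14 CH-H2 steers, 9 also had a library from another phase, which places their H2 level beside an earlier one of the same animal. RFI class was kept by 6 of them and changed by 3. Among steers that were H-RFI in both sampled phases, *THRSP* was at 4.83 CPM in H1 and 25.4 CPM in H2 in steer 1320 and at 6.02 and 11.9 CPM in steer 443, while steer 1484 had 11.3 CPM in ZG and 4.03 CPM in H2.

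Among steers that were L-RFI in both, steer 322 had 0.440 CPM of *THRSP* in H1 and 3.22 CPM in H2, steer 310 had 3.67 CPM in ZG and 1.82 CPM in H2, and steer 1492 had 0.569 and 0.705 CPM. None of these 3 exceeded 3.67 CPM in a phase, and none of the 3 steers that were H-RFI in both had less than 4.03 CPM. *THRSP* was followed because of its H2 levels, in which the classes did not overlap. The H2 values in this split are thus not independent of that choice. The share of all genes that split these steers in the same way was not computed. Over all CH-H1 steers the classes overlapped in *THRSP*.

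The steers that changed class did not follow that split. Steer 307 was H-RFI in H1 (6.97 CPM) and ZG (2.57 CPM) and L-RFI in H2 (2.49 CPM). Steer 1100 was L-RFI in H1 (9.78 CPM) and ZG (0.445 CPM) and H-RFI in H2 (3.38 CPM), and steer 856 was H-RFI in H1 (2.01 CPM) and L-RFI in H2 (2.31 CPM). No test was made on these few animals, and the steers were chosen only by having a second library.

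**Figure D5:**
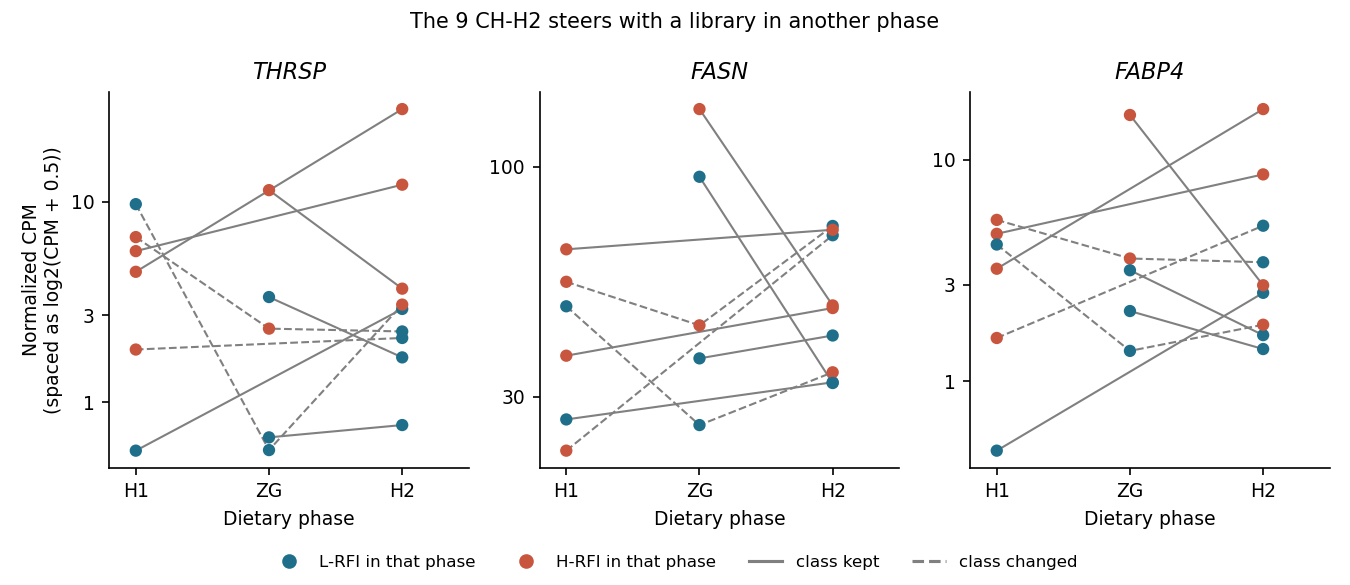
Normalized CPM of *THRSP*, *FASN* and *FABP4*, on axes spaced as log2(CPM + 0.5), for the 9 CH-H2 steers with a library in another phase, coloured by the RFI class in that phase and dashed for the 3 steers that changed class. *THRSP* in the 3 steers that stayed H-RFI lay between 4.03 and 25.4 CPM and in the 3 that stayed L-RFI between 0.440 and 3.67 CPM. The gene was followed because of its H2 levels, which are among these values.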

How the data were processed

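RNA from muscle biopsies was sequenced by the authors, who, per the paper's methods, trimmed reads with cutadapt, aligned them with STAR and counted them per Ensembl gene in STAR's GeneCounts mode. The submitters' processing notes name STAR 2.5.1 and genome build UMD3.1, while the methods name another build, so no coordinates or sequences are given. What was deposited are unnormalized read counts for 24616 genes, and the reverse-strand counts were used, which held 98.6% to 99.4% of the stranded counts in CH-H2. Genes reaching 1 CPM in 50% or more of the libraries were kept, TMM factors computed, and classes compared with edgeR 4.0.16 (quasi-likelihood test, adjusted p-value under 0.1 and fold change above 1.5). Levels are TMM-normalized CPM. Tests were checked on simulated data. Alternatives were edgeR's exact test, DESeq2 1.42.0, limma 3.58.1 voom, an exact permutation test, robust dispersions, RLE factors, other filters, unstranded counts, all 16 libraries, 1 model of all groups and leaving out steers, while leaving out libraries that stood apart (1 of CH-ZG included) and the 2 covariates were added after seeing the data. Depth floors cover counting error only.

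Samples were grouped by the deposited breed, diet, RFI class and steer number. Gene names came from the study's own list of identifiers (151 matched), and ADIPOQ and OAS1 were not analysed here. Named genes were those with the 20 smallest p-values that have a name, 20 genes listed from the study's account of CH-H2 (ACTC1, EGR1 and MYH4, also named there, were added after their values were seen), list members with an unadjusted p-value under 0.05 or up to 4 of the largest changes, and the 10 genes most like THRSP. The genes, lists and comparison were chosen with earlier results of these data known. The number of identical pairs of libraries was 0. Software was R 4.3.3, Python 3.11.15, numpy 2.4.6, scipy 1.17.1 and matplotlib 3.10.9.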

Additional observations from a re-analysis of the deposited data

Results flagged for a closer look

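Over 33 named genes, 66 classes of 7 steers were checked for a steer far from the others, and 6 had one, where chance gives about 1 in 20. FASN stood at 448 CPM in H-RFI steer 1840 against 32.3 to 68.0 CPM in the other H-RFI steers, and CKB at 24.5 CPM in the same steer against 1.49 to 4.49 CPM. PDK4 stood at 429 CPM in L-RFI steer 1316 against 5.37 to 19.2 CPM. FGB, the beta chain of fibrinogen, stood at 36.4 CPM in L-RFI steer 856 against 9.23 to 16.6 CPM. MYH4 stood at 90.9 CPM in H-RFI steer 1320 against 2.10 to 4.98 CPM. PTPRC stood at 13.9 CPM in L-RFI steer 322 against 0.121 to 1.63 CPM.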

How the results depend on the processing

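The count of genes called was 0 under all alternatives and in every fit without 1 steer, except edgeR's exact test (1), DESeq2 (2) and the adipocyte marker covariate (1 gene, ENSBTAG00000045574, log2 fold change 4.89, adjusted p-value 0.0102, against 1.51 without the covariate). The count at an unadjusted p-value under 0.05 was 61 to 117 without 1 steer, 345 by limma voom with sample quality weights, 471 without a filter on low counts, 212 without steers 1484 and 1840, 521 with the first principal component and 498 with the adipocyte covariate. THRSP kept its direction throughout, from -3.71 without L-RFI steer 322 to -1.25 with the covariate, and passed the threshold by the exact test (-3.39) and DESeq2 (-3.38).

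Directions turned under the adipocyte covariate for FASN (0.29), CIDEC (0.26), CKB (0.0012), EGR1 (-0.51), SLC27A6 (-0.49) and PDK4 (-3.61), and without steers 1484 and 1840 for EGR1 (-0.022), SLC27A6 (-0.26) and PDK4 (-0.16), with SLC27A6 at -0.17 when steer 856 was also left out. CIDEC is part of the sum used as the adipocyte covariate, so its turn there is not an independent result. PDK4 was -0.70 by DESeq2, -0.79 by limma voom and -0.48 by the permutation test, and PTPRC -0.78 by DESeq2 and -0.044 by the permutation test. MT-CO3 was -0.036 by limma voom, -0.057 by the permutation test, -0.058 with all 16 libraries, -0.046 without steers 856, 1484 and 1840 and -0.34 with the first principal component. With all 16 libraries ALB was 1.03, FGB 0.49, FGG 0.10, AHSG 0.020, HPX 0.61 and VTN 0.17, and with limma voom ORM1 was 0.12, AHSG 0.29, HPX 0.36 and VTN 0.36. Without 1 steer in turn, PDK4 ranged from -2.64 (without L-RFI steer 1316) to 2.09, MYH4 from -2.41 to 1.84 (without H-RFI steer 1320), SLC27A6 from -0.16 to 0.47, PLIN5 from -0.094 to 0.25, EGR1 from -0.061 to 0.69, FOS from -0.013 to 1.68 and MT-CO3 from -0.49 to 0.43. The plasma protein median was 0.060 with all 16 libraries, and the median for fatty acid uptake and oxidation ranged from -1.52 (without L-RFI steer 1316) to 0.44. The cause was not tested. Without the CH-ZG library of steer 571, 0 genes passed for the difference to CH-ZG.

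Steers differ within CH-H2, so no replicate block applies there. For the differences of RFI effects, limma voom with the steer as replicate block found 0 genes, with 141 and 59 at an unadjusted p-value under 0.05 against CH-H1 and CH-ZG, where 105 and 46 were found without the block. The steers of a class are separate animals. Counts under about 1 CPM in the shallowest library cannot show a difference.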
